A study of Mus musculus with 31 samples.

Results

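The resistin-like molecules of the mouse are encoded by 4 genes, Retn, Retnla, Retnlb and Retnlg, which were taken by symbol from the 27623 genes of an RNA-seq table of mouse colon. All 4 symbols had a row, and their levels were followed across 31 libraries in 3 genotype groups. The DHO group (n = 10) carried TAK1 IEC-KO and Tradd IEC-KO, the loss of both genes in intestinal epithelial cells (IEC), together with Ripk1 D138N/D138N. In the HO group (n = 10) TAK1 IEC-KO stood on Ripk1 D138N/D138N with Tradd not targeted, and the WT group (n = 11) was Tak1f/f, floxed but not deleted, also on Ripk1 D138N/D138N. All 3 groups thus shared the D138N change of RIPK1, a kinase of the TNF receptor complex, so that WT here is not a wild type for Ripk1. All libraries came from colon tissue at 7 days post induction, and the stated question is the role of TRADD, an adaptor of the TNF receptor, in the colitis of mice whose gut epithelium lacks the kinase TAK1. No source used here names the Cre driver, the inducing agent or the age and sex of the mice. Whether every library came from its own mouse is likewise unstated, and the p-values then reflect the spread among libraries, which may be technical. Replicate numbers follow the order of listing and only name a library.

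Resistin-like molecules are small secreted proteins with a cysteine-rich carboxy-terminal part, and in mice each is made mainly by a different kind of cell. Resistin (Retn) is a product of mouse adipocytes. RELM alpha (Retnla) is made by macrophages that respond to interleukin-4 and interleukin-13 through the transcription factor STAT6, and also by adipose tissue, eosinophils and some epithelia. RELM beta (Retnlb) is secreted by goblet cells of the large intestine in response to microbes and type 2 cytokines, and RELM gamma (Retnlg) is known from bone marrow and neutrophils. In bulk tissue such as this, fewer cells of a type and less RNA per cell cannot be told apart.

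The deposited values are FPKM, fragments scaled to gene length and to library size. The relative depth of the libraries, read from the steps between low values and set to 1 in the median library, was 0.84 to 1.02 in DHO, 0.797 to 1.05 in HO and 0.863 to 1.03 in WT. Markers of colon epithelium were high in DHO and WT and low in most HO libraries. Epcam, an epithelial adhesion molecule, had a median of 929 FPKM in DHO, 14.6 FPKM in HO and 825 FPKM in WT. Tradd itself lay between 1.36 and 3.89 FPKM in DHO, between 12.4 and 59.2 FPKM in HO and between 45.9 and 97.5 FPKM in WT, so the targeted gene was lowest in the group labelled for its loss. Map3k7, the gene of TAK1, had medians of 10.4 FPKM in DHO, 13.6 FPKM in HO and 10.4 FPKM in WT, and was thus no check of the epithelial deletion in whole tissue. On the first principal component 3 libraries stood apart, HO replicate 2 at 44.9 (the other HO libraries lay between 98.9 and 150) and DHO replicates 8 and 9 at 51.3 and 25.5 (the other DHO libraries lay between -76.3 and -41.4). Several values below are also given without them.

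Retnlb, Retnla and Retnlg lie side by side on chromosome 16, and Retn lies elsewhere. In GRCm38.p6, the assembly also called mm10, RefSeq places Retnlb at chr16:48816856-48818892, Retnla at chr16:48842609-48844461 and Retnlg at chr16:48872608-48874498, an interval of 57.6 kb in all, with gaps of 23.7 kb and 28.1 kb between neighbours. Retn lies at chr8:3655770-3659818. The nearest genes on each side had low medians: Trat1, 6.31 kb to the left, had medians of 0.0419, 0.0238 and 0.0148 FPKM in DHO, HO and WT, and Dzip3, 49.7 kb to the right, had medians of 0.652, 0.504 and 0.696 FPKM. Cip2a, 120 kb to the right, had medians of 7.77, 1.74 and 3.79 FPKM.

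Retnla and Retnlg, the pair of neighbours whose levels differed in opposite directions between HO and WT, have promoters that are much alike. The windows below run from 250 bases before to 50 bases after the gene start, from RefSeq on the plus strand of GRCm38.p6 (chr16:48842359-48842658 for Retnla and chr16:48872358-48872657 for Retnlg), and are shown because they carry the same signal-response motif at genes of different lineages. Capitals mark matches to the palindrome read by STAT6 (TTC, any 4 bases, GAA), TTGCNNAA on either strand (a C/EBP core) and TATAAA (the TATA box).
Retnla promoter: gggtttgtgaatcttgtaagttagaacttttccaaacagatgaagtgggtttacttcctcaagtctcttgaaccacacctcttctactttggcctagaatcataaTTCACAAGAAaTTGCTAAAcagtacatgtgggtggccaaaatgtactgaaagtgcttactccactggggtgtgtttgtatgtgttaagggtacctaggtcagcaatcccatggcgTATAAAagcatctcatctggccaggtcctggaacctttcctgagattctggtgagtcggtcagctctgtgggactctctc
Retnlg promoter: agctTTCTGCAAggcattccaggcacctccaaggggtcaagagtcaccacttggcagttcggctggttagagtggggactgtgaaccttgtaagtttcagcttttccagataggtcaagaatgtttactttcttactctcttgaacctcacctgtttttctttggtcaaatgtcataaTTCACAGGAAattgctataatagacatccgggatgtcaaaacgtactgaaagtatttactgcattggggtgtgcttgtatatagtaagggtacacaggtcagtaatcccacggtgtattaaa
Over 226 aligned bases, 175 (77.4%) were identical between the 2 windows. The STAT6 palindrome began 145 bases before the start of Retnla (as TTCACAAGAA) and 72 bases before the start of Retnlg (as TTCACAGGAA), and such a match is held by 6.95% of the 32851 promoter windows of the same length. The C/EBP core, held by 10.8% of promoters, lay just downstream of the palindrome in Retnla (TTGCTAAA, from -134) and in reverse at the far end of the window in Retnlg (TTCTGCAA, from -246). A TATA box at -30 was found in Retnla and not in Retnlg, against 13.6% of promoters. The 2 windows are offset, however. The Retnlg window ends within the stretch that resembles the one around the Retnla TATA box, and reads tattaaa there. Distances from the start, and what each window can hold, thus depend on where the gene start is annotated. The CDX motif TTTATG, held by 11.9% of promoters, was in neither window, and the Retn window (chr8:3655520-3655819) held no match to any of the 4 motifs and was 61.2% identical to that of Retnla. These are matches of letters in a window, and binding was not measured. The promoter of Retnlb was not analysed here. The transcripts of Retnla and Retnlg were 84.5% identical over their alignment, yet 0 runs of 50 bases were shared by any of the 4 genes with transcripts of another gene.

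**Figure D1:**
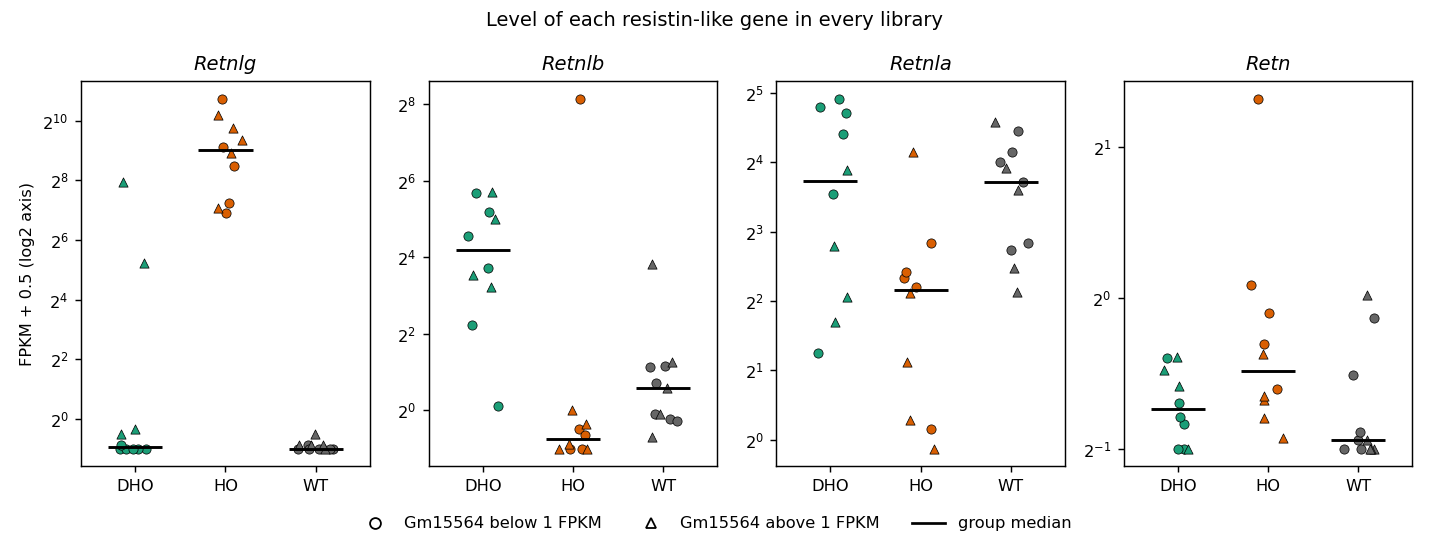
Level of each resistin-like gene in every library, as FPKM + 0.5 on a log2 axis that differs between panels, with DHO, HO and WT from left to right. Each point is a library, the bar is the group median, and circles and triangles mark libraries below and above 1 FPKM of the noncoding RNA Gm15564. Retnlg separates HO (118 to 1710 FPKM) from WT (0 to 0.197 FPKM), Retnlb is highest in most DHO libraries and in HO replicate 2, Retnla is lower in HO, and Retn stays below 1 FPKM in 30 of 31 libraries.

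The 3 genes of chromosome 16 passed the filter on low values (at least 1 FPKM in at least 10 libraries), and Retn did not, with 1 library at or above 1 FPKM. Retnlg passed through all 10 HO libraries and DHO replicates 8 and 9, so its passing already rested on the groups in which it was high. Retnlb reached 1 FPKM in 15 libraries (9 DHO, 1 HO and 5 WT), so its passing likewise rested on the DHO libraries, in which it was high. In HO against WT, limma called Retnla and Retnlg at an adjusted p under 0.05, while 71.4% of the 12812 genes tested were called. In DHO against HO the 3 genes were called, against a background of 68.7% (39% higher and 29.7% lower), and in DHO against WT Retnlb alone was called, against a background of 21.2% (12.5% higher and 8.7% lower). With backgrounds of this size in the comparisons with HO, a call there says little about a gene, and sizes and ranges are given for each. The comparisons share groups and are therefore not independent of each other.

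**Figure D2:**
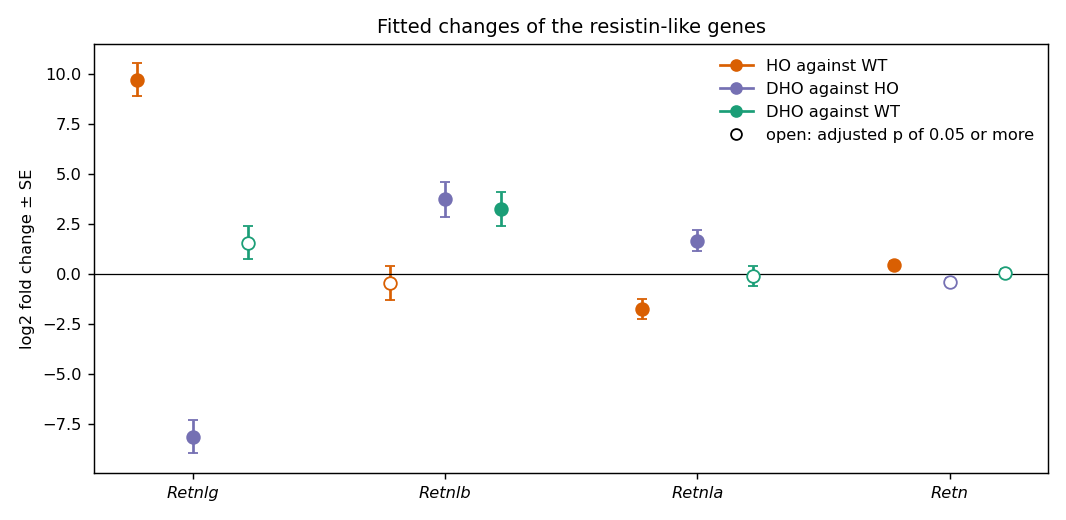
Fitted log2 fold change of each resistin-like gene, on the log2(FPKM + 0.5) scale, with its standard error from limma, for HO against WT (n = 10 and 11), DHO against HO (n = 10 each) and DHO against WT (n = 10 and 11). Filled points passed an adjusted p of 0.05. Retnlg spans 9.69 in HO against WT and -8.14 in DHO against HO, and Retnlb is the only one of the 4 with a filled point in DHO against WT (3.23).

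Retnlg, the neutrophil member, was the most abundant of the 4 in 9 of 10 HO libraries and nearly undetected in WT colon. Its level was 0 to 244 FPKM in DHO (median 0.021), 118 to 1710 FPKM in HO (median 521) and 0 to 0.197 FPKM in WT (median 0). Means were 28.1 ± 76.8 FPKM in DHO, 620 ± 512 FPKM in HO and 0.0342 ± 0.0584 FPKM in WT (SD, n = 10, 10 and 11). All 10 HO libraries lay above every WT library, as did 16.1% of the genes tested. The log2 fold change in HO against WT was 9.69 ± 0.82 (SE, limma adjusted p = 7.76e-12, on the log2(FPKM + 0.5) scale). With an added 0.1 FPKM in place of 0.5 it was 11.76 and with 1 FPKM it was 8.73, since the WT values are at the limit of detection: 1 fragment was worth 0.0407 to 0.0534 FPKM, the WT libraries held at most 4 fragments each, and 6 of 11 held none. A count of 0 allows up to 3 fragments, or 0.122 to 0.16 FPKM, counting error only.

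Retnlg in DHO colon fell into a low majority and 2 libraries far above it. There were 8 DHO libraries with 0 to 0.293 FPKM, the range of WT or just above it, while DHO replicates 8 and 9 held 244 and 36.6 FPKM. In DHO against HO the log2 fold change was -8.14 ± 0.84 (SE, limma adjusted p = 7.55e-10), and 9 of the 10 DHO libraries lay below the lowest HO library. The exception was DHO replicate 8, which exceeded HO replicates 2, 4 and 10 (118, 150 and 133 FPKM). DHO against WT gave 1.55 ± 0.82 (adjusted p = 0.175 in limma), and without DHO replicates 8 and 9 it gave 0.07 (adjusted p = 0.928), so the excess over WT rested on these libraries.

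Other neutrophil genes stood at the same extremes in the same libraries. Of 19 tested genes of a neutrophil list, 18 were higher in HO than in WT and 1 was lower, with a median log2 fold change of 7.79, where 33% of all genes tested were called higher and their overall median was -0.06. As with Retnlg, many of these genes passed the filter mainly through the HO libraries, which in itself favoured a higher level in HO. Wfdc21 reached at most 0.0685 FPKM in WT and had a DHO median of 0 FPKM. Cxcr1, on the list with at most 0.439 FPKM in HO, missed the filter. S100a8, a calcium-binding protein abundant in neutrophil cytosol, had medians of 2.75 FPKM in DHO, 9790 FPKM in HO and 1.09 FPKM in WT. Csf3r, the receptor of granulocyte colony-stimulating factor, changed by 5.25 ± 0.45 in HO against WT, Camp, the cathelicidin of secondary granules, by 7.65 ± 0.37, and Wfdc21 by 9.59 ± 0.50 (log2, SE; limma adjusted p = 1.08e-11, 7.48e-17 and 3.06e-16). The 1 lower gene was Ly6g, otherwise the standard surface marker of mouse neutrophils, with medians of 324 FPKM in DHO, 40.6 FPKM in HO and 217 FPKM in WT and a log2 fold change of -2.07 ± 0.42 in HO against WT (limma adjusted p = 6.66e-05). In WT colon it thus stood at 217 FPKM beside a median of 0 FPKM for Retnlg, and did not follow the other genes of its list. With DHO set against HO, 18 of the 19 fell, as did 29.7% of all genes tested, and Ly6g rose by 2.78 ± 0.43 (limma adjusted p = 1.37e-06).

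Across libraries of one group Retnlg followed the neutrophil list closely in HO, and in DHO with replicates 8 and 9 far above the floor. With the mean log2(FPKM + 0.5) of the 19 tested genes as a score, Pearson's r between Retnlg and the score was 0.99 over the 10 DHO libraries, 0.96 over the 10 HO libraries and 0.38 over the 11 WT libraries, where both were near the floor. DHO replicates 8 and 9 had scores of 5.59 and 3.55, against -0.13 to 0.99 in the other DHO libraries, over which r was 0.91. Those other libraries held at most 7 fragments of Retnlg each, so this r also lies near the floor. Retnlg exceeded the score in every HO library, by 0.50 to 2.35 (log2). Of the 19 genes 4 were called in DHO against WT, all higher, where 12.5% of all genes tested were called higher, with a median of 1.11 beside an all-gene median of 0.02. Without DHO replicates 8 and 9 the count was 1 and the median 0.22.

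**Figure D3:**
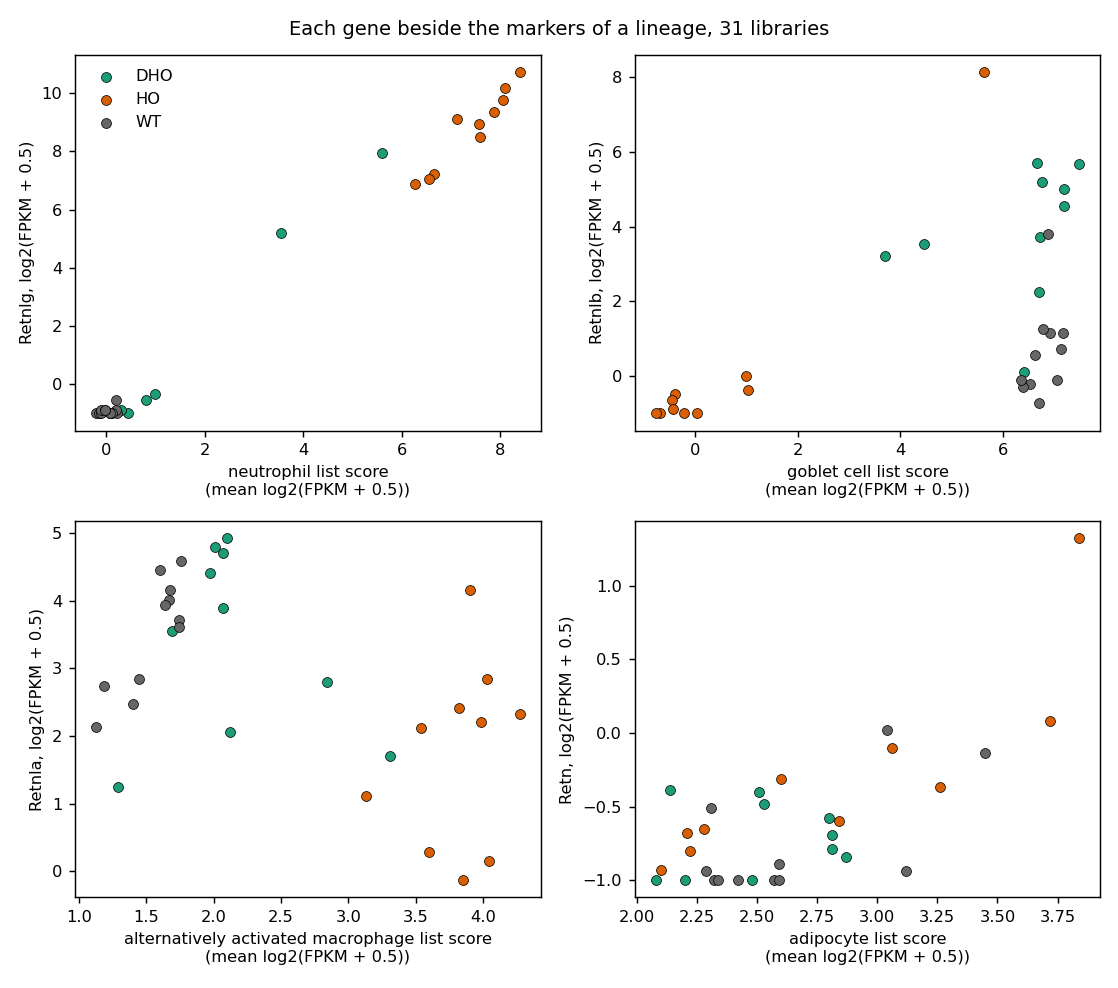
Level of each gene, log2(FPKM + 0.5), against the mean log2(FPKM + 0.5) of a marker list in the same library: Retnlg with neutrophil genes, Retnlb with goblet cell genes, Retnla with genes of alternatively activated macrophages and Retn with adipocyte genes. Points are the 31 libraries, coloured by DHO, HO and WT. Retnlg lies along a line through HO and DHO replicates 8 and 9, Retnlb runs from -0.71 to 5.70 among the DHO and WT libraries with goblet scores of 6.35 or more, and Retnla is lower in HO at higher macrophage scores.

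Retnlb, the goblet cell member, was higher in DHO colon than in either other group by its median, and its highest value of all was in an HO library. Its level was 0.583 to 51.6 FPKM in DHO (median 17.9), 0 to 283 FPKM in HO (median 0.0934) and 0.113 to 13.6 FPKM in WT (median 0.987). A level of 5 FPKM was reached by 8 of 10 DHO libraries, 1 of 10 HO libraries and 1 of 11 WT libraries. Means were 23.0 ± 18.6 FPKM in DHO, 28.4 ± 89.3 FPKM in HO and 2.07 ± 3.87 FPKM in WT (SD, n = 10, 10 and 11), and the HO mean without replicate 2 was 0.131 ± 0.174 FPKM. In DHO against WT the log2 fold change was 3.23 ± 0.84, or 9.41-fold (SE, limma adjusted p = 0.00863). The groups overlapped: 5 DHO libraries exceeded the highest WT library, and the other 5 lay within the WT range. That highest WT library, replicate 9 at 13.6 FPKM, stood above the other 10, which reached at most 1.91 FPKM. Without it the log2 fold change was 3.55 (limma adjusted p = 0.00597), and without DHO replicates 8 and 9 it was 3.36 (limma adjusted p = 0.0208).

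Goblet cell genes as a group did not show this rise in DHO over WT. Of 15 goblet cell genes, 0 passed the limma test in DHO against WT (2 had an unadjusted p under 0.05, both lower), with a median log2 fold change of -0.30 beside an all-gene median of 0.02. Of all genes tested, 12.5% were called higher and 8.7% lower in this comparison. Muc2, the gel-forming mucin of the colon, had medians of 76.8 FPKM in DHO and 59.2 FPKM in WT (0.42 ± 0.59, SE, limma adjusted p = 0.646), and Zg16, a lectin that binds bacterial cell walls, had medians of 3270 FPKM in DHO and 2730 FPKM in WT (-0.30 ± 0.89, adjusted p = 0.837). Klk1 (-1.63 ± 0.70, limma adjusted p = 0.0918) and Clca1, a secreted protein of mucus (-1.03 ± 0.61, limma adjusted p = 0.231), had negative values. At an almost constant goblet score in WT (6.35 to 7.16, mean log2 of the 15 genes), Retnlb varied from 0.113 to 13.6 FPKM. Retnlb minus that score was -6.29 to -0.47 in DHO (median -1.99) and -7.40 to -3.07 in WT (median -6.40), and the 2 ranges overlapped. Whether Retnlb changed by more than the goblet genes was not tested. Without HO replicate 2 in the fit, 2 of the 15 genes were called lower in DHO than in WT, and without DHO replicates 8 and 9 limma called 0 (0 at an unadjusted p under 0.05), with a median of 0.25. Of 14 genes of epithelium at large limma called 0 in DHO against WT (0 at an unadjusted p under 0.05, median 0.02), and of 12 colonocyte genes it called 3, all lower (median -0.97, and -0.25 with 2 called without DHO replicates 8 and 9, while 5 were lower and 1 higher without HO replicate 2): Slc26a3, an anion exchanger (-1.62 ± 0.53, limma adjusted p = 0.0298), Slc20a1, a phosphate carrier (-1.74 ± 0.26, limma adjusted p = 0.000104), and Cyp2c55 (-4.01 ± 0.85, limma adjusted p = 0.0023, named after its value was seen).

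In HO colon Retnlb was at or near 0 in 9 of 10 libraries. Of these, 4 were listed at 0 and 5 held 0.0419 to 0.503 FPKM, where 1 fragment was worth 0.0356 to 0.0467 FPKM. HO replicate 2 held 283 FPKM, or about 7650 fragments, the highest Retnlb of all 31 libraries. Its goblet score was 5.62, against -0.76 to 1.04 in the other HO libraries, and it was the 1 HO library in which Retnlb exceeded that score, by 2.52 (log2). Every one of the 15 goblet genes was called lower in HO than in WT, with a median of -7.11, where 38.4% of all genes tested were called lower. Tff3, a trefoil peptide of mucus, had medians of 1200 FPKM in DHO, 0.536 FPKM in HO and 1420 FPKM in WT.

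Retnlb in HO against WT changed with that library. With all libraries the log2 fold change was -0.48 ± 0.84 (SE, limma adjusted p = 0.621), and without HO replicate 2 it was -1.37 ± 0.55 (SE, limma adjusted p = 0.0261). In HO 5 libraries lay below the lowest WT library (0.113 FPKM), 4 lay within the WT range and 1 lay above it. That lowest WT value stood for 3 fragments, and those 5 HO libraries held 0 or 1 fragment each. A count of 0 allows up to 3 fragments, or 0.107 to 0.14 FPKM, so they cannot be told apart from that WT library. DHO against HO gave 3.72 ± 0.86 (SE, limma adjusted p = 0.000337) with all libraries and 4.60 ± 0.56 (limma adjusted p = 1.63e-08) without HO replicate 2. All 15 goblet genes were higher in DHO than in HO, as were 39% of all genes tested, with a median of 6.30 beside an all-gene median of 0.10.

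Retnla, known from alternatively activated macrophages among other sources, was lower in HO colon than in WT colon and had close medians in DHO and WT. Its level was 1.87 to 29.8 FPKM in DHO (median 12.8), 0.415 to 17.3 FPKM in HO (median 3.97) and 3.87 to 23.4 FPKM in WT (median 12.7). Means were 14.4 ± 10.8 FPKM in DHO, 4.48 ± 5.0 FPKM in HO and 12.6 ± 6.63 FPKM in WT (SD, n = 10, 10 and 11). In HO against WT the log2 fold change was -1.76 ± 0.50 (SE, limma adjusted p = 0.00253), and 5 of the 10 HO libraries lay below the lowest WT library. The other 5 overlapped with WT, HO replicate 10 at 17.3 FPKM and the rest at 6.68 FPKM or less. In DHO against HO it was higher by 1.66 ± 0.52 (SE, limma adjusted p = 0.00532), with 4 DHO libraries above the highest HO library. DHO against WT gave -0.10 ± 0.50 (limma adjusted p = 0.905), and the sign turned to 0.19 without DHO replicates 8 and 9.

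The fall of Retnla in HO stood beside a rise of most other genes linked to alternatively activated macrophages. Of 13 such genes tested, 9 were higher in HO than in WT, 2 were lower and 2 were not called, with a median of 1.67 beside the all-gene median of -0.06. Of all genes tested, 33% were called higher and 38.4% lower. Arg1, the arginase of these macrophages, had medians of 0.492 FPKM in DHO, 406 FPKM in HO and 0.298 FPKM in WT, and rose by 8.75 ± 0.36 in HO against WT (log2, SE, limma adjusted p = 1.7e-18). Chil3, a chitinase-like protein also made by neutrophils, had medians of 0.974 FPKM in DHO, 1950 FPKM in HO and 0.238 FPKM in WT (11.30 ± 0.62, limma adjusted p = 9.17e-16). Mrc1, the mannose receptor, rose by 1.31 ± 0.24 (limma adjusted p = 1.79e-05), and Il10, a cytokine that restrains inflammation, by 3.30 ± 0.22 (limma adjusted p = 7.62e-14). Il10 passed the filter through the HO libraries alone, with at most 0.868 FPKM in DHO and 0.168 FPKM in WT. Arg1 and Chil3 reached at most 0.725 and 0.468 FPKM in WT and had DHO medians under 1 FPKM. Their passing thus also rested on the HO libraries, in which they were high. The 2 that fell with Retnla were Klf4 (-3.99 ± 0.30, limma adjusted p = 6.16e-13), a transcription factor that colonocytes also express, and Mgl2 (-2.65 ± 0.21, limma adjusted p = 2.03e-12), a lectin of dermal and tissue macrophages and dendritic cells that is named here after its values were seen. Retnla thus moved opposite to Arg1 and Chil3, although all 3 are used as markers of one macrophage state.

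Within groups the relation of Retnla to these genes varied with the libraries included. Pearson's r with the mean log2 of the 13 macrophage genes was -0.17 over the 10 DHO libraries, 0.25 over the 10 HO libraries and 0.86 over the 11 WT libraries. Without DHO replicates 8 and 9 the DHO value was 0.65, and without HO replicate 2 the HO value was 0.40. Retnla minus that score had medians of 1.84 in DHO, -1.86 in HO and 1.97 in WT. With the adipocyte score the r was 0.85 in DHO, 0.30 in HO and 0.41 in WT, and it was 0.96 without DHO replicates 8 and 9 and 0.63 without HO replicate 2. That score came from 11 genes. Adipoq and Plin1 missed the filter and were not in it, while Fabp4 and Pparg, which other cells also express, were. It was therefore not a measure of fat alone. The points behind these values of r share library depth and tissue sampling, and they are given as a description. Of 16 genes of monocytes and macrophages at large, 15 were higher in HO than in WT, where 33% of all genes tested were, with a median of 3.53: Adgre1, which encodes F4/80, had medians of 5.22 FPKM in DHO, 61.1 FPKM in HO and 3.41 FPKM in WT. DHO exceeded WT in 11 of these 16 genes and was lower in 1, where 12.5% and 8.7% of all genes tested were called higher and lower. Without DHO replicates 8 and 9 the counts for these 16 genes were 4 and 0.

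Transcripts of genes known from eosinophils, another source of Retnla, were scarce, and the number of such cells was not measured. None of 9 eosinophil genes passed the filter, and their summed level was 0.583 to 7.35 FPKM in DHO, 1.03 to 2.97 FPKM in HO and 0.505 to 1.62 FPKM in WT. Epx, the eosinophil peroxidase, was at 0 in every DHO and WT library and reached at most 0.00963 FPKM in HO, while Siglecf had medians of 0.226 FPKM in DHO, 0.0947 FPKM in HO and 0.21 FPKM in WT. Of 4 tested genes of the mesothelium, which lines the outer surface of the colon, 3 were higher in HO than in WT, with a median of 1.98, and Krt7 was lower (-2.12 ± 0.52, limma adjusted p = 0.000605). Calls covered 33% (higher) and 38.4% (lower) of all genes tested. Msln, the mesothelin gene, had medians of 1.94 FPKM in DHO, 6.28 FPKM in HO and 0.285 FPKM in WT, and its part in the levels of Retnla and Retn was not tested.

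Retn, the resistin gene itself, was close to the limit of detection in all 3 groups. Its level was 0 to 0.262 FPKM in DHO (median 0.0988), 0.0249 to 2.0 FPKM in HO (median 0.215) and 0 to 0.513 FPKM in WT (median 0.0195). A fragment of Retn was worth 0.0192 to 0.0252 FPKM, so these medians stand for 5, 10 and 1 fragments, and 3 DHO libraries and 5 WT libraries held none. A count of 0 allows up to 3 fragments, or 0.0577 to 0.0757 FPKM. In a fit of limma over all 27623 genes the log2 fold change in HO against WT was 0.46 ± 0.19 (SE, adjusted p = 0.0493), where 47.9% of all genes were called. The call was marginal: 23 of the 31 fits that left out 1 library lost it. In DHO against HO the value was -0.41 ± 0.20 (limma adjusted p = 0.0935, 43.7% of genes called), and in DHO against WT it was 0.05 ± 0.19 (limma adjusted p = 0.960, 9.08% called).

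The highest values of Retn in HO and WT were found in libraries with adipocyte transcripts, and some other libraries had Retn without them. HO replicate 4, at 2.0 FPKM of Retn, also held the highest Adipoq (3.30 FPKM, the adiponectin gene), Plin1 (0.53 FPKM, a coat protein of lipid droplets) and Cfd (67.7 FPKM, adipsin) of the HO group. In WT the highest values of these 3 genes were all in replicate 5 (1.04, 0.316 and 14.0 FPKM), whose Retn of 0.41 FPKM was second to that of WT replicate 7 (0.513 FPKM). HO replicate 3, at 0.431 FPKM of Retn, had 0.0205 FPKM of Adipoq and 0 FPKM of Plin1, and DHO replicate 8, the highest of its group at 0.262 FPKM of Retn, had 0 FPKM of Adipoq, Plin1 and Cfd. Across libraries Pearson's r of Retn with Adipoq was 0.25 in DHO, 0.89 in HO (0.70 to 0.94 with 1 library left out) and 0.89 in WT (0.82 to 0.96). The medians of Adipoq were 0.0315 FPKM in DHO, 0.0458 FPKM in HO and 0.0212 FPKM in WT, so adipose transcripts were scarce in most libraries, and their part in the level of Retn was not tested. Of 11 tested adipocyte genes 3 were higher, 3 lower and 5 not called in HO against WT, with a median of -0.26. Of all genes tested, 33% were called higher and 38.4% lower. Adipoq and Plin1 missed the filter and were not among the 11. Fabp4, the fatty acid binding protein that macrophages and endothelium also express (2.79 ± 0.19, limma adjusted p = 6.4e-14), and Lipe, hormone-sensitive lipase (1.48 ± 0.15, limma adjusted p = 4.74e-10), rose. By limma 0 of the 11 were called in DHO against WT, where 21.2% of all genes tested were, and 2 had an unadjusted p under 0.05.

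The right neighbours of Retn on chromosome 8 had the same order of group medians as Retn, at other levels. Mcemp1, a membrane protein first described in mast cells, 5.94 kb away, had medians of 0.643 FPKM in DHO, 121 FPKM in HO and 0.321 FPKM in WT, and Fcor, 11.4 kb away, had medians of 0.242, 8.54 and 0.137 FPKM. Stxbp2, 11.8 kb to the left, had medians of 29.4, 28.7 and 27.4 FPKM. Pearson's r of Retn with Mcemp1 was 0.57 over the DHO libraries, -0.41 over the HO libraries and -0.36 over the WT libraries.

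Set side by side per length, the 4 genes traded places between the groups. Their summed level was 26.4 to 256 FPKM in DHO (median 49.7), 151 to 1720 FPKM in HO (median 524) and 7.04 to 24.4 FPKM in WT (median 14.9). Every HO library lay above every WT library, as it did for 16.1% of single genes tested. The lowest DHO library (26.4 FPKM) lay just above the highest WT library (24.4 FPKM). For DHO the share of genes with such a gap was not computed. In WT Retnla led in 10 of 11 libraries, with a median share of 91.1%, and Retnlb led in WT replicate 9 with 77.6%. In HO Retnlg led in 9 of 10 libraries, with a median share of 99.3%, and Retnlb led in HO replicate 2 with 70.3%, beside 29.4% for Retnlg. DHO libraries had no common leader: Retnla led in 4, Retnlb in 4 and Retnlg in 2, which were replicates 8 (95.4%) and 9 (67.4%). The share of Retnlb in DHO ran from 2.21% to 96.4%, so libraries of one genotype ranged from nearly pure Retnla to nearly pure Retnlb. Pearson's r between the log2 values of Retnla and Retnlb was -0.43 over DHO, -0.36 over HO (0.38 without HO replicate 2) and -0.70 over WT libraries, a description only.

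**Figure D4:**
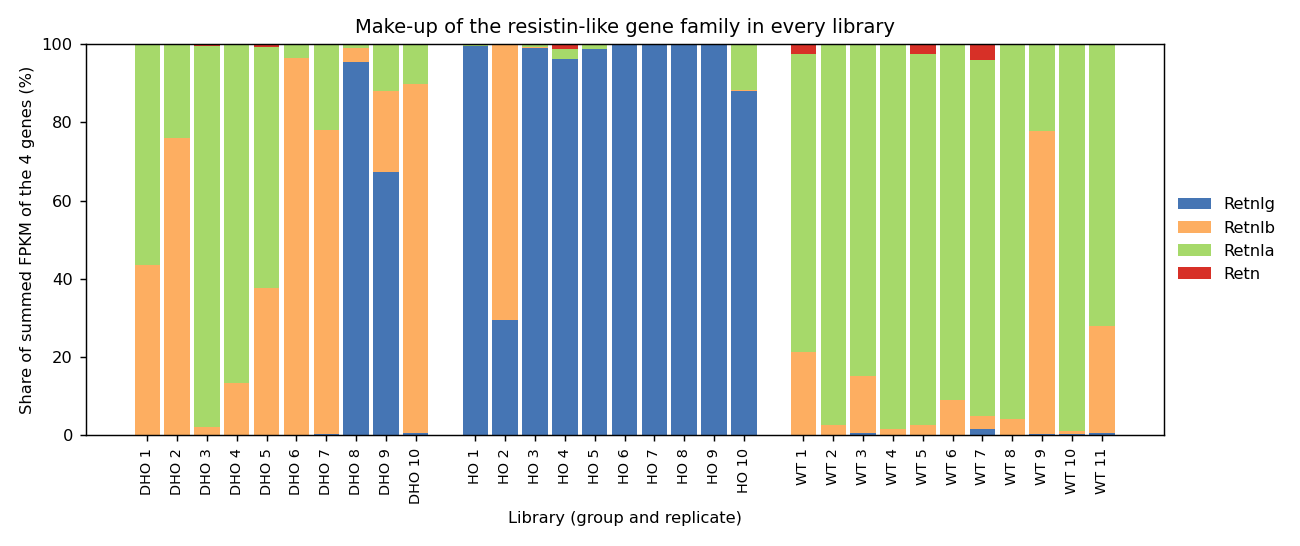
Share of each gene in the summed FPKM of the 4 resistin-like genes, in percent, for every library, with DHO, HO and WT from left to right. Retnlg takes nearly the whole bar in 9 of 10 HO libraries, Retnla leads in 10 of 11 WT libraries, and DHO libraries are split between Retnla, Retnlb and, in replicates 8 and 9, Retnlg.

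The genes most like each member over all 31 libraries, by Pearson's r of log2(FPKM + 0.5), differed in kind. For Retnlg they were Trem1 (0.998), Mmp9 (0.995), Cxcr2 (0.993), Cd300lf (0.993) and Hdc (0.992), and after removal of the group means the same 5 genes led, at 0.964 to 0.987. Trem1 and Cxcr2 are surface receptors of neutrophils, Mmp9 is a gelatinase of their granules, and Hdc makes histamine. For Retnlb they included Stc2 (0.868), Tmigd1 (0.853), Trim15 (0.847) and Tlcd3a (0.838), and after removal of the group means Pmm2 (0.868), Muc2 (0.845), Tmigd1 (0.842) and Ptk6 (0.836). Muc2 is one of the 15 goblet genes, and Ptk6 is a kinase of differentiating gut epithelium, with medians of 7.05 FPKM in DHO, 0.0875 FPKM in HO and 2.26 FPKM in WT. Tmigd1 (4.03 FPKM in DHO, 0.249 FPKM in HO and 0.97 FPKM in WT) and Trim15 (8.23, 0.47 and 1.46 FPKM) had the order of medians of Retnlb.

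For Retnla the most alike genes were Tnfrsf19 (0.855), Tnnt2 (0.834), Hoxd12 (0.812), Cap2 (0.804) and Inmt (0.804). None of these is on the macrophage lists: Tnnt2 encodes a cardiac troponin, and Hoxd12 is a posterior Hox gene with medians of 2.03 FPKM in DHO, 0.50 FPKM in HO and 7.04 FPKM in WT. After removal of the group means Tnfrsf19 (0.873), Sspn (0.819), Hoxd12 (0.804), Osr1 (0.791) and Tnnt2 (0.787) led, so 3 genes were on both. Osr1, a transcription factor of connective tissue, had medians of 4.52 FPKM in DHO, 17.3 FPKM in HO and 5.86 FPKM in WT, and shared with Retnla the spread within groups but not the order of the groups. For Retn too few libraries reached 0.5 FPKM for a list of alike genes.

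Il4 and Il13, type 2 cytokines that induce Retnla and Retnlb, were at the floor, as was Il5. The medians of Il4, Il5 and Il13 were 0 FPKM in all 3 groups, and Il13 reached at most 0.0249 FPKM in DHO, 0.0968 FPKM in HO and 0.0859 FPKM in WT. Of the 9 type 2 genes that could be tested, most of them receptors, 7 were higher in HO than in WT, 1 was lower and 1 was not called, with a median of 2.85, where 33% and 38.4% of all genes were called higher and lower. Il33, an alarmin, had medians of 3.05 FPKM in DHO, 35.6 FPKM in HO and 2.88 FPKM in WT (3.28 ± 0.53 in HO against WT, limma adjusted p = 2.13e-06). Il4ra, the receptor chain shared by interleukin-4 and interleukin-13, rose by 4.07 ± 0.28 in HO against WT (limma adjusted p = 1.04e-13) and Stat6 by 0.85 ± 0.09 (limma adjusted p = 3.86e-10), in the group in which Retnla fell. In DHO against WT 3 of the 9 were higher, as were 12.5% of all genes tested, Il4ra among the 3 (1.29 ± 0.28, limma adjusted p = 0.00276). Without DHO replicates 8 and 9 the count was 1.

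Receptors proposed for resistin and its relatives were expressed in all 3 groups. Of 5 such genes 3 were higher and 1 lower in HO than in WT, with a median of 0.84, where 71.4% of all genes tested were called. Cap1, an adenylyl cyclase-associated protein, had medians of 171 FPKM in DHO, 213 FPKM in HO and 124 FPKM in WT (0.84 ± 0.13 in HO against WT, limma adjusted p = 1.22e-06, and 0.56 ± 0.13 in DHO against WT, limma adjusted p = 0.00439). Tlr4, the endotoxin receptor, rose by 1.0 ± 0.16 in HO against WT (limma adjusted p = 1.37e-06), Ror1 was at 0.04 ± 0.13 (limma adjusted p = 0.798), and Dcn, the matrix proteoglycan decorin, rose by 2.63 ± 0.32 (limma adjusted p = 1.58e-08). Insr, the insulin receptor, fell by 0.64 on the log2 scale in HO against WT (limma adjusted p = 6.09e-05).

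Transcription factors reported upstream of the 4 genes went in both directions. Of 11 tested, 4 were higher and 6 lower in HO than in WT, with a median of -0.88 beside an all-gene median of -0.06. Of all genes tested, 33% were called higher and 38.4% lower. The lower ones included Gfi1, a factor of granulocytes (-0.88 ± 0.17, limma adjusted p = 4.37e-05), and Cebpa was not called (-0.14 ± 0.20, limma adjusted p = 0.547), both named after their values were seen. Cebpe, needed for late neutrophil maturation, had medians of 0.0105 FPKM in DHO, 4.0 FPKM in HO and 0 FPKM in WT (3.46 ± 0.24 in HO against WT, limma adjusted p = 1.01e-13), and Spi1 and Cebpb, both active in myeloid cells, rose by 4.96 ± 0.32 and 4.61 ± 0.34 (limma adjusted p = 3.4e-14 and 3.58e-13). Cebpe passed the filter through the HO libraries alone, with at most 0.408 FPKM in DHO and 0.0837 FPKM in WT. Cdx2, the intestinal homeobox factor, fell by 3.25 on the log2 scale (limma adjusted p = 1.8e-05), and Pparg, active in both colonocytes and adipocytes, fell by 2.17 (limma adjusted p = 6.6e-10). In DHO against WT 2 of the 11 were called, against 21.2% of all genes tested: Cebpb (0.96 ± 0.34, limma adjusted p = 0.0401) and Spi1 (1.16 ± 0.32, limma adjusted p = 0.0125). Without DHO replicates 8 and 9 limma called 0 of the 11, with 1 at an unadjusted p under 0.05. Cdx2 gave -0.15 ± 0.60 in DHO against WT with all libraries (limma adjusted p = 0.888), while Retnlb was higher.

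The libraries also divided by the noncoding RNA Gm15564, which lay at 0 to 0.0736 FPKM in 17 libraries (6 DHO, 5 HO and 6 WT) and at 6.27 to 14.5 FPKM in 14 (4 DHO, 5 HO and 5 WT). The labels name no batch. Within the 17 and within the 14 libraries the HO against WT change of Retnlg was 9.47 and 9.89, and that of Retnla was -1.66 and -1.84, called by limma in each. Retnlb in DHO against WT was 3.18 (limma adjusted p = 0.265) and 3.40 (limma adjusted p = 0.00599), similar in size with a wider error in the 17 libraries. Retnlb in DHO against HO was 2.58 (limma adjusted p = 0.119) in the set that holds HO replicate 2 and 5.02 (limma adjusted p = 0.000162) in the other. Retnla in DHO against HO was 1.95 (limma adjusted p = 0.0112) and 1.10 (limma adjusted p = 0.246), and Retnlg in the same comparison was -9.47 and -5.98, the second of these with DHO replicates 8 and 9. Retnlg in DHO against WT was 0.00 in the 17 libraries and 3.90 (limma adjusted p = 0.0425) in the 14. A limma test of the difference between the sets called none of the 4 genes in any comparison. The lowest adjusted p was 0.067, for Retnlg in DHO against WT (p = 0.0094 before adjustment in limma), and unadjusted p also lay under 0.05 for Retnlg in DHO against HO (0.0211 in limma) and for Retn in DHO against HO and HO against WT (0.0152 and 0.0476 in limma). An unadjusted p under 0.05 was held by 3863 of the 12812 genes in DHO against WT and by 3454 in DHO against HO. In the fit over 27623 genes used for Retn it was held by 4779 in DHO against HO and by 1204 in HO against WT.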

How the data were processed

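Per the labels, colon RNA was extracted with TRIzol and the library kit was VAHTS Universal V6. The submitters' processing notes name fastp, HISAT2, HTSeq and the build mm10. Tool versions, strand setting and read length were not given in the sources used here. Deposited values are FPKM computed by the authors for 27623 genes, with 0 columns left unmapped. The table gives no counts, so fragment numbers were read from the steps between low values (22 of 22 low Retn values, 13 of 13 for Retnlb and 8 of 8 for Retnlg lay within 0.03 of a whole fragment). No 2 libraries were identical, and the highest correlation was 0.993. PCR copies are not separable, so limits at 0 cover counting error only.

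The test was limma 3.58.1 (R 4.3.3, trend and robust) on log2(FPKM + 0.5), fitted to all 31 libraries with a mean for each group, two-sided, Benjamini-Hochberg over the 12812 genes that reached 1 FPKM in 10 or more libraries. Retn missed that filter and was taken from the same fit over all 27623 genes. Checks on simulated data were run first. Levels, shares, list scores and correlations are descriptions computed in Python 3.11.15 with pandas 2.3.3, promoter windows are from RefSeq (GRCm38.p6), aligned with Biopython 1.88, and 50-base runs were sought in GENCODE M21 transcripts. Named are the 4 members, the 3 defining genes and 2 more (smallest p in HO against WT) of each list, and the 5 genes most correlated with a member, leaving out genes without an established symbol; the neighbours of the members, Il4 and Il5 are named beyond this rule, after their values were seen, as is any other so marked. The members and lists were chosen with earlier results of these data known. Alternatives were other pseudocounts, filters, scalings, sample sets and a permutation test. Il9 was not analysed here, and a gene that the naming rule takes is not reported here.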

Additional observations from a re-analysis of the deposited data

Results flagged for a closer look

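In 4 of the 8 sets of 10 libraries examined (4 genes in DHO and in HO), 1 library lay far from the rest of its group, judged by its gap to the nearest library over the whole range of the group against a Dixon limit of 0.466. Chance alone singles out about 1 in 20 such sets where values are normally distributed, which FPKM of these genes are not, and WT, with 11 libraries, was not examined. Retnlg was 244 FPKM in DHO replicate 8, where the next DHO library held 36.6 FPKM (gap over range 0.85). Retnlb was 283 FPKM in HO replicate 2, where the next HO library held 0.503 FPKM (0.998). Retnla was 17.3 FPKM in HO replicate 10, next to 6.68 FPKM (0.63), and Retn was 2.0 FPKM in HO replicate 4, next to 0.559 FPKM (0.729). On the log2(FPKM + 0.5) scale, tried after seeing the data, the gap over range was 0.89 for Retnlb and 0.55 for Retn, above the limit, and 0.305 for Retnlg and 0.307 for Retnla, below it. The 4 values belong to 4 different libraries. DHO replicate 8 also had the highest neutrophil score of its group (5.59), HO replicate 2 the highest goblet score of its group (5.62), and HO replicate 4 the highest Adipoq of its group (3.30 FPKM), and the part of these cell types in the values was not tested.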

How the results depend on the processing

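Retnlg and Retnla in HO against WT and Retnlg in DHO against HO kept direction and call in all 46 alternatives each. Leaving out 1 library at a time gave 9.47 to 9.90 for Retnlg, -2.03 to -1.55 for Retnla and -0.17 to -1.37 for Retnlb in HO against WT, the last called only without HO replicate 2, also when DHO replicates 8 and 9 were left out with it (-1.37). It gave -8.95 to -7.92, 1.45 to 1.93 and 3.52 to 4.60 for Retnlg, Retnla and Retnlb in DHO against HO, and 3.03 to 3.65 for Retnlb, -0.27 to 0.14 for Retnla and 0.74 to 1.74 for Retnlg in DHO against WT. Retnla in DHO against WT, never called, turned to 0.14, 0.09 and 0.05 without DHO replicate 6, 8 or 10, to 0.29 in the libraries low in Gm15564 and to 0.19 without DHO replicates 8 and 9, with or without HO replicate 2.

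Retn in HO against WT kept its call in 13 alternatives and lost it in 31, among them a pseudocount of 1 FPKM (0.28), a common total (0.42), the 2 groups alone, no variance trend, a permutation test or without DHO replicates 8 and 9 (each 0.46), without these and HO replicate 2 (0.42) and in the libraries high in Gm15564 (0.10), and ran from 0.28 to 0.54 with 1 library left out. In DHO against HO Retn ran from -0.48 (called without HO replicate 8) to -0.23, with -0.86 (called) in the libraries low in Gm15564 and 0.07 in those high in it. In DHO against WT Retn ran from 0.01 to 0.13, with -0.04 in the libraries low in Gm15564 and -0.01 without DHO replicates 8 and 9, with or without HO replicate 2.

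In the libraries low in Gm15564 Retnlb was 0.60 in HO against WT and lost its call in DHO against HO (2.58) and DHO against WT (3.18). In those high in it Retnla lost its call in DHO against HO (1.10) and Retnlg gained one in DHO against WT (3.90). Genes called in DHO against WT numbered 2719, 4550 with the Gm15564 division as a term, 68 and 5102 in the low and high libraries, 1306 without DHO replicates 8 and 9, 1745 without HO replicate 2 as well, and 1847 to 3050 with 1 library left out. The causes were not tested. No paired analysis was possible because the labels give no replicate number shared between groups. Depth limits the low values: Retn had group medians of 1 to 10 fragments, Retnlg 0.5 in DHO and 0 in WT, and Retnlb 2.5 in HO.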
